A study of Mus musculus with 1012 samples.

Results

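Adipose stem and progenitor cells (ASPCs) that had been exposed for 2 days to an adipogenic cocktail are referred to as ASPC_Post. Their members were chosen by label alone, as the libraries of ASPCs marked as treated with DMIR, which gave 72 of the 1012 single-cell libraries of the series. Of these, 35 were whole sorted cells profiled by scRNA-seq in batch 9_1, and 37 were cytoplasmic biopsies profiled by Live-seq, in which a hollow cantilever draws part of the cytoplasm out of a living cell, in batch 9_4. The study set out to read transcriptomes from cells that stay alive, and used adipogenic differentiation as a slow cell state transition. The cells were primary ASPCs from the subcutaneous fat of young adult female C57BL/6J mice, and the cocktail held dexamethasone, 3-isobutyl-1-methylxanthine (IBMX), insulin and rosiglitazone (DMIR). Untreated ASPCs of the same batches (ASPC_Pre, 44 by scRNA-seq and 43 by Live-seq) served only as the baseline. A test over all states at the end also uses IBA brown preadipocytes and macrophages of the line Raw264.7_G9, a subline of RAW264.7 with fluorescent reporters, with a few plain Raw264.7 cells by Live-seq, untreated or treated with LPS. The labels name no mouse, dish or culture for any of these cells, and each technique has 1 batch of the state. Of the 37 Live-seq libraries, 24 were second extractions, drawn from cells that had also been sampled before induction, and 13 came from cells sampled a single time.

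The cocktail acts through separate routes. Dexamethasone is a ligand of the glucocorticoid receptor, IBMX blocks the breakdown of cyclic AMP, insulin drives nutrient uptake and lipid synthesis, and rosiglitazone activates PPARG, the nuclear receptor that commits a progenitor to the fat cell fate. C/EBP beta and delta come first in this cascade, PPARG and C/EBP alpha follow, and genes for lipid handling such as Fabp4, and at last adipokines such as adiponectin, appear as the cell matures. The 4 genes taken to mark the state fall on both arms: Fkbp5, Zbtb16 and Tsc22d3 are classical targets of the glucocorticoid receptor, whereas Fabp4, a fatty acid carrier, is a target of PPARG.

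Total counts per cell ran from 422240 to 1333468 (median 741774) by scRNA-seq and from 275404 to 1603790 (median 608826) by Live-seq, and the median number of genes detected was 9183 and 5691. Levels are given as CPM, counts scaled to the same total in each cell, after 20 genes found in negative controls and 91 ribosomal protein genes had been set aside. These are not corrected for transcript length, so that levels are compared between cells, not between genes. Intervals are 95% limits, Poisson for pooled levels and binomial for shares of cells. The Poisson limits take reads as independent. No molecular identifiers were used and reads of 1 molecule can be counted repeatedly, so these limits are narrower than the error in counting molecules. The binomial limits take cells of 1 batch as independent draws. The limits on levels do not describe the spread between cells, and neither kind describes that between cultures.

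Before the results, 3 features of the libraries must be given. First, libraries of the 2 techniques resembled each other cell by cell. After each of 3036 genes had been centred on its mean within the technique, 30 of the 35 scRNA-seq cells and 30 of the 37 Live-seq cells were each other's best match. The correlation of log2(CPM + 1) within these pairs ran from 0.1745 to 0.719 (median 0.340), against a median of 0.153 for the next best library and of -0.0051 over all 1295 pairs. Among untreated ASPCs of the same batches 33 such pairs were found (median 0.321), whereas in batch 8_8, where both techniques were also run, 6 of 16 scRNA-seq cells had one, with a median of 0.0829 and no value above 0.145. Reciprocal best matches also arise among unrelated libraries, and the number to expect was not computed. The ASPC_Post pairs of lowest correlation hardly exceeded their next best library (0.18 against 0.16, and 0.17 against 0.14). Matched is thus used for every reciprocal pair, not all of them equally certain.

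The paired libraries also agreed in single genes. Such agreement is in part built in, since the matching used these genes, and it was therefore run again, as a choice made after seeing the data, without EGFP, Malat1, the lipid and glucocorticoid lists and all genes that were uneven by both techniques. On the remaining 2891 genes the same 30 pairs were found (median correlation 0.282), a matching in which the genes left out played no part. EGFP, the reporter of the barcoded ASPCs used for repeated sampling, was counted in both libraries of 13 pairs, in the scRNA-seq library alone in 11, in neither in 6 and in the Live-seq library alone in 0, and all 8 pairs with over 100 EGFP counts by scRNA-seq held over 10 by Live-seq. The pair with the most held 2673 and 2097 counts, and the next 1938 and 1594. Across the 30 pairs, Spearman's rho was 0.92 for Malat1, 0.86 for EGFP and 0.83 for the summed lipid genes, as a description of libraries that come from different labelled batches and differ in depth. The sorted cells and the biopsies of this state are therefore not treated as independent, and a pattern seen by both techniques is not counted as seen in 2 experiments. The cause was not tested.

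**Figure D1:**
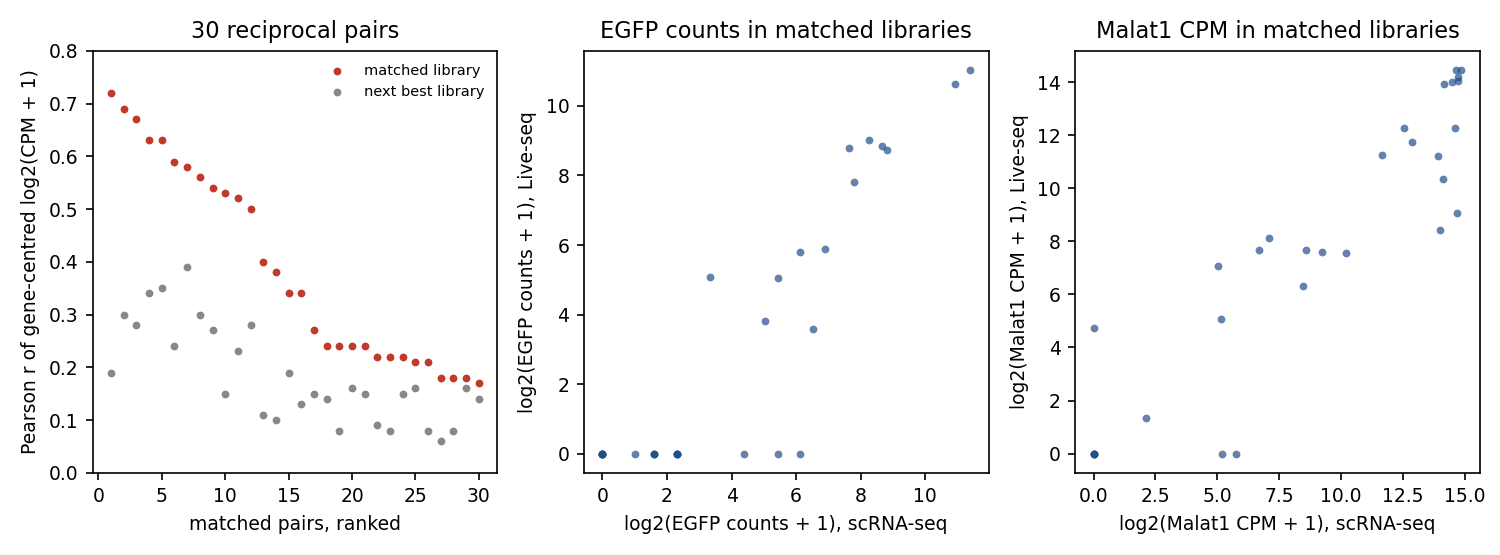
Best matches between 35 scRNA-seq and 37 Live-seq ASPC_Post libraries. Left, correlation of the 30 reciprocal pairs (red) and of each one's next best library (grey), ranked by pair. Middle and right, EGFP counts and Malat1 CPM of the scRNA-seq (x axis) and Live-seq (y axis) library of each pair, on a log2(value + 1) scale. Each point is a pair, EGFP is never counted in the Live-seq library alone, and Malat1 rises along the diagonal.

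Second, the sex-linked genes did not follow the stated source. Y-linked transcripts alone were counted in 19 of 35 scRNA-seq cells, Xist alone in 2, both in 10 and neither in 4, and by Live-seq the numbers were 21, 3, 2 and 11 of 37. In untreated ASPCs of the same batches they were 31, 0, 4 and 9 of 44 by scRNA-seq and 24, 1, 1 and 17 of 43 by Live-seq. Lastly, markers of other cell types were low, but not all at 0. Epithelial markers were at 0 in every cell, the summed mesothelial markers reached at most 5.44 CPM, and of the 10 macrophage markers Tyrobp, Laptm5 and Itgam were at 0 by both techniques, with Ptprc at 1 count in all, whereas Csf1r was at 14.2 and 12.1 CPM (23 and 12 cells) and Lyz2 at 10.9 and 3.57 CPM (16 and 6 cells). The list summed to between 0 and 219.1 CPM per scRNA-seq cell and 0 and 123 CPM per Live-seq cell, with a count in 85.7% and 40.5% of cells. Summed endothelial markers stayed at or under 66.0 CPM, with Cdh5 and Tie1 at 0, and of the mural markers Notch3 alone exceeded 10 CPM (19.9 by scRNA-seq, in 20 cells), with a list sum of up to 251.2 CPM per scRNA-seq cell, above every untreated cell in 3. Endothelial and mural counts were found in 68.6% and 62.9% of scRNA-seq cells, and the part of these markers in the results was not tested. ASPC markers were present: the stem cell antigen gene Ly6a was counted in 34 of 35 and 37 of 37 cells, and Pdgfrb, a receptor of mesenchymal progenitors, in 32 and 27, while Cd34 was counted in 5 and 3.

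The part of the response that reached most cells, carried largely by Mt1 and Mt2, was the summed level of the glucocorticoid targets. The summed level of 16 of them had a median of 6855 CPM by scRNA-seq (lowest 1745, highest 15696) and of 6397 CPM by Live-seq (lowest 715.7, highest 14119). These levels depend on the total they are scaled to: when the 20 and 91 genes set aside were kept in it, the medians were 4307 and 4741 CPM. The sum lay above that of every untreated cell of the batch in 32 of 35 scRNA-seq cells (91.4%, 76.9 to 98.2) and in 31 of 37 Live-seq cells (83.8%, 67.99 to 93.8). The highest untreated cell was at 3637 and 4259 CPM. With the genes set aside kept in the total, 31 of 35 and 27 of 37 cells lay above every untreated cell. Among Live-seq cells sampled a single time, 9 of 13 did. The coefficient of variation (CV, the SD over the mean across cells) of this sum was 0.483 and 0.431. The median share of mitochondrial counts was 8.71% and 8.20% in induced and 3.64% and 3.03% in untreated cells, and its part in these sums was not tested. Without the matched libraries, 4 of the remaining 5 scRNA-seq and 6 of the remaining 7 Live-seq cells were above every untreated cell.

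**Figure D2:**
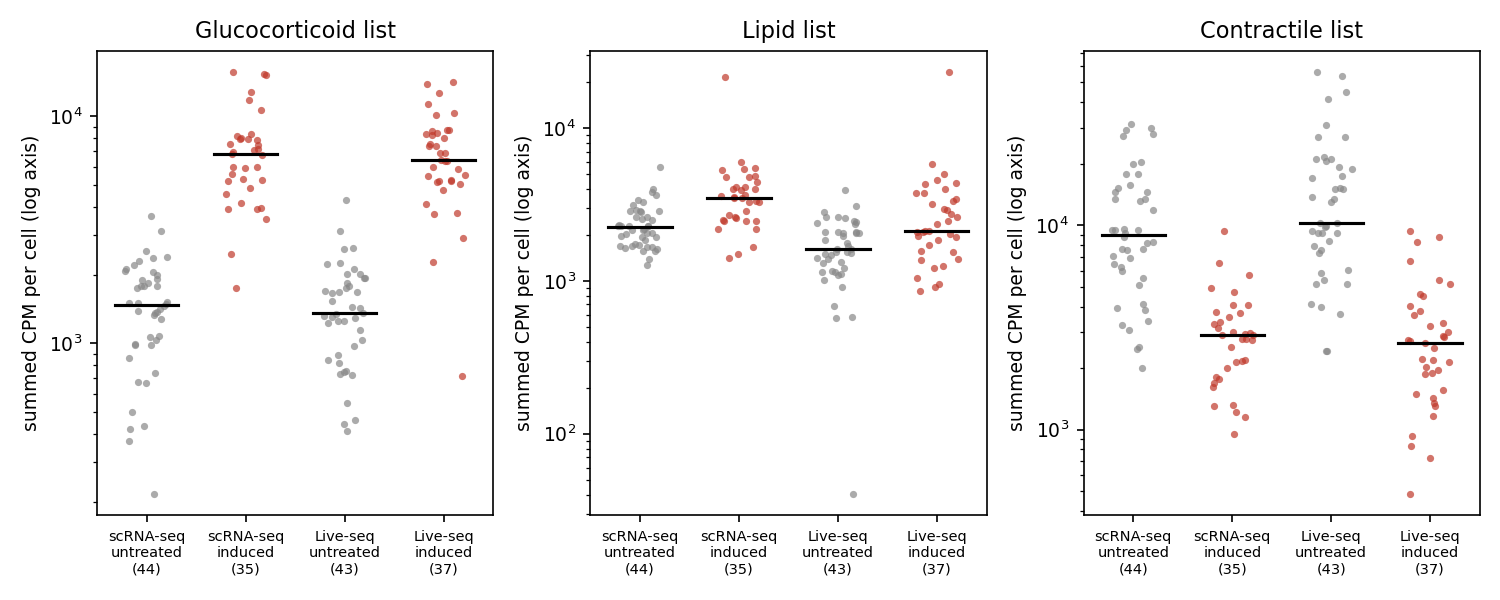
Summed CPM per cell of the glucocorticoid, lipid and contractile gene lists (y axis, log scale) in untreated (grey) and induced (red) ASPCs by technique, with the number of cells in parentheses. Each point is a cell and the bar is the median. For the glucocorticoid list 32 of 35 and 31 of 37 induced cells lie above all untreated cells, for the lipid list 2 and 7 do, and for the contractile list none does and 10 and 17 lie below all untreated cells.

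This breadth came largely from the metallothioneins Mt1 and Mt2, small metal-binding proteins that glucocorticoids and zinc are both known to induce. Mt1 was counted in all 72 cells, at 793.1 to 9112 CPM by scRNA-seq (median 3125) and 501.7 to 7838 CPM by Live-seq (median 3092). Mt2 was counted in all of them too, at 47.3 to 1815 CPM (median 518.4) and 102.2 to 1169 CPM (median 496.6), and exceeded every untreated cell in 32 of 35 and 33 of 37. With both left out, the glucocorticoid sum exceeded every untreated cell in 18 of 35 scRNA-seq (51.4%, 33.99 to 68.6) and 12 of 37 Live-seq cells (32.4%, 18.01 to 49.8). With Errfi1, a feedback inhibitor of EGF signalling, left out as well, these were 21 and 10 cells. A majority of induced cells above every untreated cell was rare among genes: it held for 33 of 8683 genes of at least 10 CPM by scRNA-seq (0.380%) and for 4 of 7807 by Live-seq (0.0512%). Mt1 and Mt2 were among them by both techniques. The other 2 by Live-seq, named after their values were seen, were Dpep1, a membrane dipeptidase (25 of 37 cells, and 28 of 35 by scRNA-seq), and Selenop, the secreted selenium carrier (23 and 25 cells).

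The promoters of the metallothionein genes are shown because these genes exceeded every untreated cell in most induced cells. The RefSeq windows below (GRCm38.p6, 250 bases before to 50 after the annotated start, plus strand) are chr8:94178839-94179138 for Mt1 and chr8:94172368-94172667 for Mt2. Capitals mark TGCGCNC, the only form of the metal response element core that was searched, on both strands. It was found 1 time in the Mt1 window, after the annotated start, and 2 times in the Mt2 window. Of 32851 promoter windows, 15.4% hold it. The form with A in place of the second G, TGCACNC, was not searched. Both windows hold unmarked matches to TGCACNC, so the marked matches are not a count of all metal response elements.
Mt1: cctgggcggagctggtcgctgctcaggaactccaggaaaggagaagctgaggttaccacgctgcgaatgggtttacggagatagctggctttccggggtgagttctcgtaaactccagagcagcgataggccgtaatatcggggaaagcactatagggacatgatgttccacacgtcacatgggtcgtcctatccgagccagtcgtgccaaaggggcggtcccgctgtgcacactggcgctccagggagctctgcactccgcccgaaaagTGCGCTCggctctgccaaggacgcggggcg
Mt2: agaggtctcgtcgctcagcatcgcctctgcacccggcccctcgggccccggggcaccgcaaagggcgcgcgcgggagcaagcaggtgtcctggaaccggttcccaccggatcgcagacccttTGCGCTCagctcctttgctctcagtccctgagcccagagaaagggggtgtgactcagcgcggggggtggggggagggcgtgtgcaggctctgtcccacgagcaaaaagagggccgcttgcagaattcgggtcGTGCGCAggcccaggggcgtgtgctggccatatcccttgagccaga

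The other glucocorticoid targets differed in how many cells they reached. Tsc22d3 (GILZ, an anti-inflammatory mediator; chrX:140539528-140600659, minus strand, GRCm38) was counted in 32 of 35 scRNA-seq cells, from 0 to 1594 CPM (median 191.8), and in 31 of 37 Live-seq cells, from 0 to 1877 CPM (median 137.7). It exceeded every untreated cell in 12 and 4 of them, so that the groups overlapped in most cells. Fkbp5, a chaperone of the receptor that dampens its signal (chr17:28399094-28517527, minus strand), was counted in 29 scRNA-seq cells (0 to 200 CPM, median 49.2) and in 16 Live-seq cells (0 to 314.6 CPM, median 0). It exceeded every untreated cell in 22 and 8. Fkbp5 was thus counted in a smaller part of the biopsies than of the sorted cells, also when each cell was thinned to 100000 counts (28 of 35 and 12 of 37).

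Zbtb16, a zinc finger transcription factor also called PLZF (chr9:48654297-48836222, minus strand), was counted in no cell of the 4 other states by either technique, in any batch used here. In ASPC_Post it was counted in 23 of 35 scRNA-seq cells (65.7%, 47.8 to 80.9; 0 to 89.05 CPM, median 6.285) and in 12 of 37 Live-seq cells (32.4%, 18.01 to 49.8; 0 to 171.4 CPM, median 0). Pooled over cells it reached 24.45 CPM (22.2 to 26.9) and 23.1 CPM (20.8 to 25.6), at least 198.3-fold and 122-fold higher than in untreated ASPCs of the same batch when these are set at a floor of 3 counts over the group. The pooled levels of the 2 techniques had overlapping intervals, while cells with a count were 19 of 35 and 9 of 37 after thinning to 100000 counts.

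Taken per cell, the 3 hormone markers were not all or none. All 3 were counted in 22 of 35 scRNA-seq cells, 2 in 7, 1 in 4 and 0 in 2. By Live-seq all 3 were counted in 8 of 37 cells, 2 in 10, 1 in 15 and 0 in 4. Of the whole list, 12 of 16 genes were counted in at least 90% of the scRNA-seq cells and 3 in at least 90% of the Live-seq cells. Over all genes with a mean of at least 10 CPM the shares were 37.2% and 8.62%. Over those with a mean of at least 50 CPM they were 71.2% and 18.15%, and the list was not matched for level. Members with broad counts were Errfi1, in 35 and 36 cells, and Glul, glutamine synthetase, in 35 and 33. At the other end, among members over 10 CPM, Zbtb16 and Arrdc2, an arrestin-domain gene, were each counted in 23 scRNA-seq cells, and Zbtb16 in 12 Live-seq cells. The median ratio of a member's CV to that of the genes nearest in mean CPM was 1.06 by scRNA-seq and 0.854 by Live-seq, near the value of 1 that a typical gene of like level has.

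**Figure D3:**
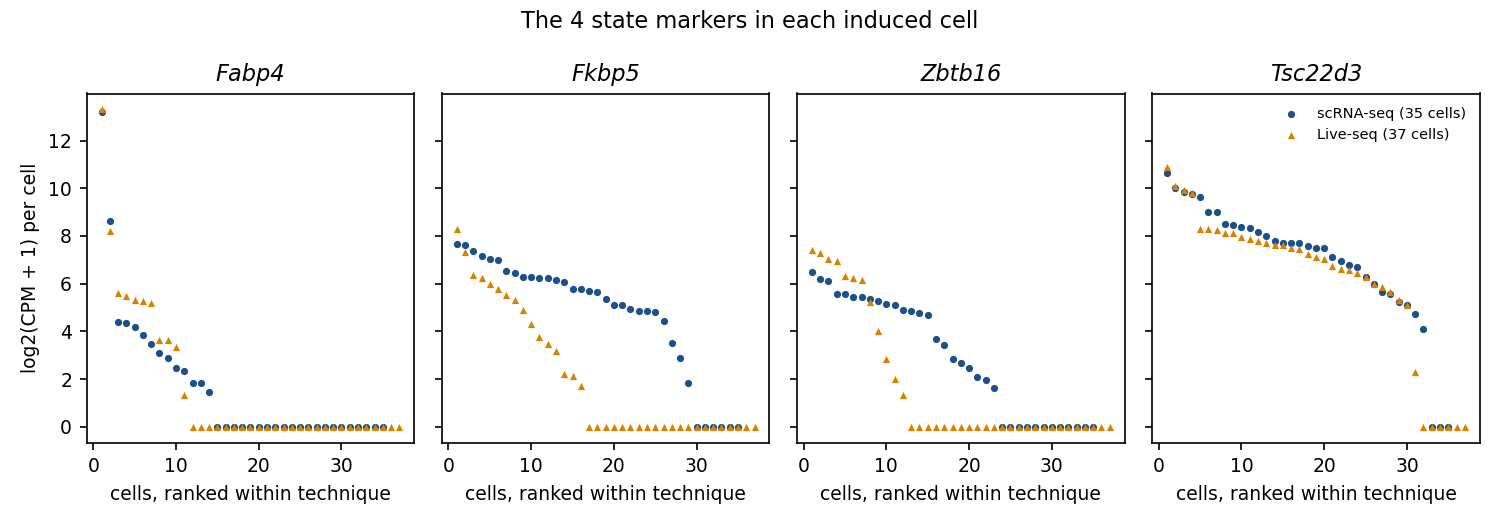
The 4 state markers in each ASPC_Post cell, as log2(CPM + 1) (y axis) against the rank of the cell within its technique (x axis), for 35 scRNA-seq (blue circles) and 37 Live-seq cells (orange triangles). Tsc22d3 declines gradually over 32 and 31 cells, whereas for Fabp4 a single cell per technique, at 9495 and 10113 CPM, stands far above the others.

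Fabp4 (chr3:10204088-10208576, minus strand) was the opposite case. Its pooled level was 571.7 CPM (560 to 583.1) by scRNA-seq and 318.9 CPM (310 to 327.7) by Live-seq, but it was counted in 14 of 35 (40.0%, 23.9 to 57.9) and 11 of 37 cells (29.7%, 15.9 to 46.98). A single cell held 97.5% of its counts by scRNA-seq, at 9495 CPM, and a single cell held 95.7% by Live-seq, at 10113 CPM. The next cells were at 390 and 291.7 CPM, and the median of the cells with any count was 8.92 and 38.1 CPM. The highest scRNA-seq and the highest Live-seq cell were a matched pair of libraries, as were the second highest. Untreated ASPCs held Fabp4 in 32 of 44 cells by scRNA-seq and in 20 of 43 by Live-seq, at pooled levels of 15.99 and 17.7 CPM, so that the groups overlapped: 2 induced scRNA-seq cells and 1 Live-seq cell exceeded every untreated cell. As a marker of all ASPC_Post cells Fabp4 therefore did not hold in these libraries.

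The libraries with most Fabp4 differed in more than Fabp4. The scRNA-seq library held 2035 CPM of Plin2, a lipid droplet coat protein, 1268 CPM of Angptl4, a PPARG target that restrains lipoprotein lipase, 616.4 CPM of Lpl, the lipase itself, 153.4 CPM of Cebpa and 100.9 CPM of Pparg. The Live-seq library held 2828 CPM of Plin2, 1574 of Angptl4, 22.8 of Cebpa and 74.65 of Pparg. Over all cells the medians were 130 and 133 CPM for Plin2, 4.57 and 0 CPM for Angptl4, and 0 for Pparg by both. Their glucocorticoid sums, 7922 CPM and 7401 CPM, lay within the range of the other cells, while Zbtb16, at 89.05 CPM, was the highest of the 35 scRNA-seq cells. The Live-seq library was a second extraction, and the library that the labels give for the same cell before induction had no Fabp4 count.

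Genes of the lipid programme differed widely in level and in how many cells held them. Of 31 genes for lipid uptake, synthesis and storage, 26 had a count by each technique and 17 reached 10 CPM. In at least 90% of cells 7 were found by scRNA-seq and 2 by Live-seq. Of all genes with a mean of at least 10 CPM, 37.2% and 8.62% were. The 31 listed genes include those below that level, so the bases are not alike. The median ratio of a member's CV to that of genes of like mean was 1.23 by scRNA-seq (17 genes) and 1.11 by Live-seq (16 genes). The desaturase genes Scd1 and Scd2 were counted in all 35 scRNA-seq cells, at 68.8 to 4156 CPM (median 753.5) and 45.04 to 2493 CPM (median 934.5), and in 36 and 34 Live-seq cells. Fasn, fatty acid synthase, was counted in 34 and 27 cells, at medians of 383.1 and 143.1 CPM. Genes typical of mature fat cells had few or no counts. Cidec, Cidea, Pck1 and Aqp7 had no count by either technique, Cd36 had none by scRNA-seq and counts in 1 Live-seq cell, and Plin1 was counted in 1 scRNA-seq cell and Plin4 in 6 and 1 cells. Lipe, hormone-sensitive lipase, was counted in 17 and 9 cells and Dgat2, an enzyme of triglyceride synthesis, in 13 and 7. The summed lipid level had a median of 3494 CPM by scRNA-seq (1416 to 21573) and 2116 CPM by Live-seq (855.6 to 23230), and exceeded every untreated cell in 2 of 35 and 7 of 37 cells, with the same counts when Fabp4 was left out.

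The 19 adipogenic transcription factors differed widely in how many cells held them. Cebpb was counted in 34 of 35 scRNA-seq cells (median 66.0 CPM) and 20 of 37 Live-seq cells, and Cebpd in 32 and 26. Ebf1, a factor of committed preadipocytes, was counted in 35 and 34 cells, at medians of 232.5 and 96.9 CPM. Cebpa was counted in 19 and 8 cells and Pparg in 10 and 6, at pooled levels of 8.42 CPM (7.11 to 9.91) and 7.76 CPM (6.45 to 9.25) for Pparg. Rxra, the partner of PPARG, was counted in 31 and 17 cells, and Klf5 and Zfp423, factors known from early adipogenesis, in 2 and 4 and in 5 and 3. Klf15, a glucocorticoid target with a role in adipogenesis, was counted in 23 scRNA-seq cells, 19 of them above every untreated cell, and in 12 Live-seq cells, 3 of them above. Of the cells with Fabp4, 6 of 14 by scRNA-seq and 5 of 11 by Live-seq held Pparg, against 4 of 21 and 1 of 26 without Fabp4. Cells with Fabp4 also had more genes detected (medians 10062 against 8439, and 7970 against 4358), and the part of this in the Pparg counts was not tested.

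Adipokines and thermogenic genes were low. Adipoq and Lep were at 0 in all 72 cells, and the 6 adipokine genes summed to 3.37 and 2.82 CPM, with a count in 6 and 3 cells. Of 9 thermogenic genes 8 were found by symbol among the counts, and Ucp1, which was not, could not be assessed. Of these 8, Dio2, a deiodinase, alone reached 10 CPM (12.9 by scRNA-seq, in 16 cells). The list had a count in 80.0% of scRNA-seq and 29.7% of Live-seq cells, and its sum, of up to 295.3 and 490.7 CPM, exceeded every untreated cell in 0 and 6 cells. Cox8b and Cidea had no count. For Adipoq, 0 counts allow a pooled level of up to 0.174 CPM by scRNA-seq and 0.188 CPM by Live-seq, which are the levels of 3 counts.

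The cAMP arm was variable from cell to cell. Summed over 12 genes it had a median of 594.7 CPM by scRNA-seq (158.7 to 2236) and 442.4 CPM by Live-seq (0 to 3086), and exceeded every untreated cell in 3 and 4 cells. Nr4a1, an orphan receptor induced by cAMP and by many other stimuli, was counted in 28 and 20 cells, from 0 to 1062 and 0 to 1652 CPM. Crem, a cAMP-responsive repressor, was at 0 to 441.9 CPM by scRNA-seq (32 cells) and reached 2790 CPM in 1 Live-seq cell (25 cells with a count). Junb, an AP-1 subunit, was the member of broadest detection, in 33 and 32 cells. Immediate early genes, which share Fos and Junb with this list, were at medians of 677.6 and 636.9 CPM and overlapped with untreated cells in all but 3 and 1 cells.

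In the insulin and IGF system the binding proteins were uneven. Igfbp4 had a median of 66.0 CPM by scRNA-seq and 43.6 CPM by Live-seq, but reached 13340 and 18504 CPM in 1 cell each, a matched pair. Igfbp6 was counted in 34 and 35 cells (medians 523.8 and 647.1 CPM, up to 6527 and 13345 CPM). The receptor genes Insr and Igf1r were counted in 31 and 33 scRNA-seq cells and in 14 and 25 Live-seq cells, and Irs2, an adaptor of both receptors, exceeded every untreated cell in 13 of 35 and 5 of 37. Sterol genes, at medians of 1657 and 1519 CPM, exceeded every untreated cell in no cell.

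Contractile genes were at the low end. Their sum had a median of 2891 CPM by scRNA-seq (950.5 to 9354) and 2649 CPM by Live-seq (482.7 to 9417), below every untreated cell in 10 of 35 and 17 of 37 cells and above in 0. Acta2, smooth muscle actin, was counted in 29 and 24 cells, from 0 to 2028 CPM (median 74.95) and 0 to 4137 CPM (median 109.3), with pooled untreated levels of 3908 and 6858 CPM. In the 9 cells with a library from before and after induction, the later one had less Acta2 in 9 and a higher glucocorticoid sum in 8. The exception fell from 1659 to 715.7 CPM, and its later library held 1964 genes, the fewest among the 37. The labels name no culture for these cells, and no test was made.

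Matrix genes made up a large and uneven share. The 20 genes had a median sum of 31967 CPM by scRNA-seq (5224 to 108562) and 22363 CPM by Live-seq (5248 to 93180). Sparc, a matrix glycoprotein, Lox, the collagen cross-linking enzyme, Bgn and Fn1 were counted in all cells of both techniques. Col3a1 and Postn, the gene of periostin, were spread more widely. Col3a1 ran from 0 to 23117 CPM by scRNA-seq and from 0 to 16469 CPM by Live-seq, and Postn from 0 to 16463 and 0 to 21432 CPM. The sum followed the number of genes detected, with Spearman's rho of 0.54 over 35 and 0.69 over 37 cells that share a batch.

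Cell cycle genes were high in few cells. G2 and mitosis genes summed to a median of 46.9 CPM by scRNA-seq and 11.4 CPM by Live-seq, with highest values of 3907 and 2992 CPM, and Mki67, a marker of cycling cells, was counted in 2 cells of each technique. S phase genes had medians of 514.6 and 577.7 CPM, of which Rrm2, a subunit of ribonucleotide reductase, was counted in 33 and 32 cells.

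Which genes were even and which were not was asked next, without regard to the lists. By scRNA-seq 3229 of 8683 genes with a mean of at least 10 CPM were found in at least 90% of cells and the median CV was 1.01. By Live-seq these were 8.62% of 7807 genes, against 37.2% by scRNA-seq, and a CV of 1.69. Among genes with a mean of at least 50 CPM, the 10 most even relative to genes of like mean by scRNA-seq included Tmem147, Morf4l1, Gpx4-ps2, Hnrnpk, Hspa8, Acp1, Eif4g2, Ndufb9 and Impdh2. Hspa8, a constitutive chaperone, had a CV of 0.3485 around a median of 1160 CPM, and Hnrnpk, an RNA-binding protein, 0.285 around 438.1 CPM. By Live-seq they were Gpx4-ps2, Cox7b, Ost4, Cox7c, Higd2a, Atp5j2, Uqcrb, Atp6v0c, Sec61b and Uqcr11, of which Cox7b, Cox7c, Uqcrb, Uqcr11 and Atp5j2 are subunits of the respiratory chain or ATP synthase. Gpx4-ps2 is a processed copy of Gpx4, so that its reads are uncertain.

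The most uneven genes ranged from those carried by 1 cell to those with counts in most cells. By scRNA-seq they were Ifit1, Fabp4, Ifit2, Oasl1, Fmo2, Ereg, Plac8, Penk, EGFP and Dcn, and by Live-seq Ifit1, Fabp4, Fmo2, Gm10800, Oasl1, Ifit2, Igfbp4, Galnt13, Mmp3 and Synrg. Ifit1, Ifit2 and Oasl1 are interferon-stimulated genes. Ifit1 reached 7823 CPM in 1 scRNA-seq cell and 9773 CPM in 1 Live-seq cell, with a median of 0 by both and counts in 6 of 35 and 1 of 37 cells. Ifit2 reached 4067 and 3456 CPM, and Oasl1 2688 and 3583 CPM. Plac8, Penk, EGFP and Dcn were broader, with counts in 30, 22, 27 and 26 of 35 cells and 58.8 to 78.6% of counts in 3 cells. The highest Ifit1, Ifit2 and Oasl1 libraries were 1 matched pair, the one with the most EGFP counts. Fmo2, a monooxygenase listed among the progenitor markers, reached 9063 and 9552 CPM in another matched pair.

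**Figure D4:**
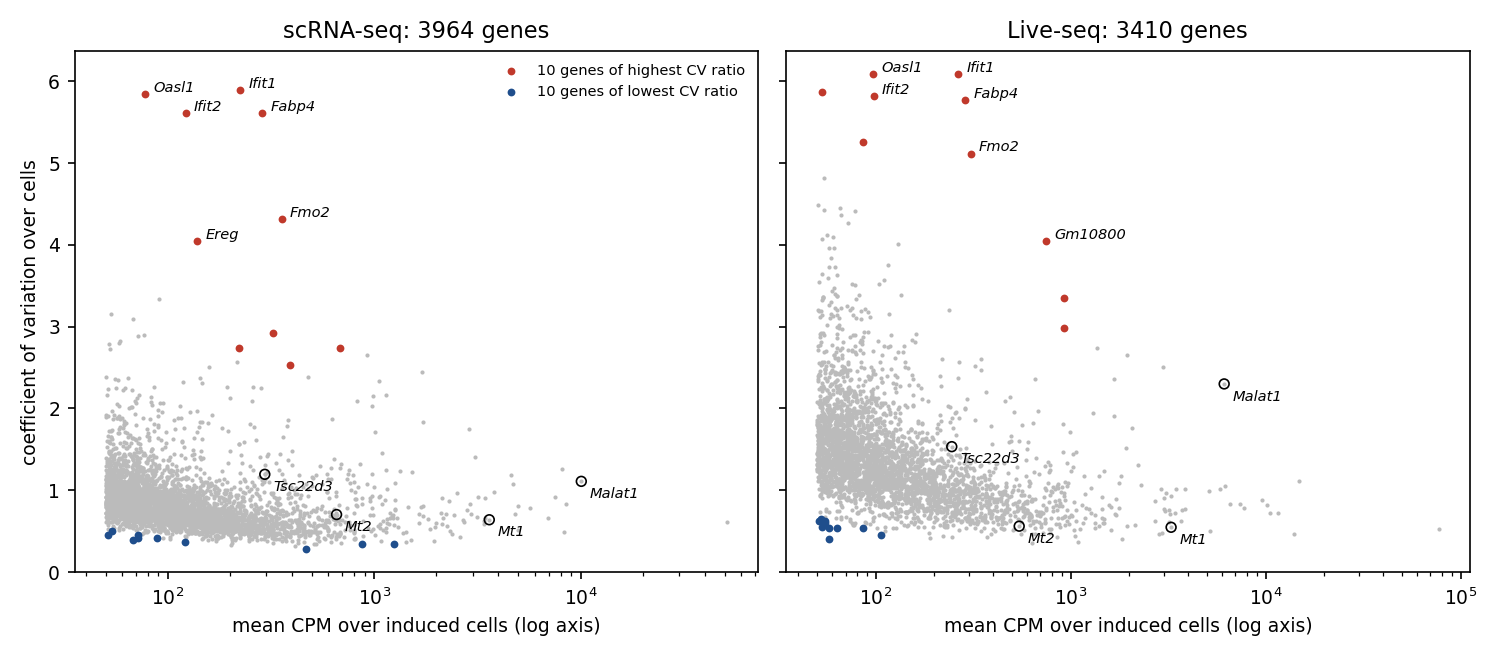
Coefficient of variation of CPM over ASPC_Post cells (y axis) against mean CPM (x axis, log scale) for genes with a mean of at least 50 CPM, 3964 by scRNA-seq and 3410 by Live-seq. Red points are the 10 genes of highest and blue points the 10 of lowest CV relative to genes of like mean, and open circles mark Mt1, Mt2, Tsc22d3 and Malat1. Ifit1, Fabp4, Ifit2 and Oasl1 lie near the top in both panels, and Mt1 and Mt2 lie among the bulk of genes.

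The Ifit1 window is shown as it belongs to the gene of highest relative CV in both techniques. It is chr19:34640639-34640938 (GRCm38.p6, RefSeq, plus strand), and capitals mark matches to the core of the interferon response element (GAAA, a gap of 2 bases, GAAA) searched on both strands, which occurs 2 times in it, both on the minus strand and so printed as its reverse complement, and in 3.44% of 32851 windows, but in none of those of Ifit2 and Oasl1.
Ifit1: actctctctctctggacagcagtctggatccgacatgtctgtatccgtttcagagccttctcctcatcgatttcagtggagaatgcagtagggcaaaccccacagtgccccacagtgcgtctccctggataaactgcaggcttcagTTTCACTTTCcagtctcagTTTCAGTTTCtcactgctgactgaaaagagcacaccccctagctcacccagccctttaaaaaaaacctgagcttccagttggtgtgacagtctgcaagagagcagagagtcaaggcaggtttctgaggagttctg

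Of the 3036 genes of at least 50 CPM by both techniques, 130 had a CV over 1.5 times that of genes of like mean in both. For 79 of these (60.8%) the highest scRNA-seq and the highest Live-seq cell were a matched pair, with the same number when all 130 were left out of the matching, as they were for 14.4% of all 3036. Malat1, a nuclear RNA, was at 0 to 29808 CPM by scRNA-seq (median 3219, counted in 30 cells) and at 0 to 78191 CPM by Live-seq (median 201.4, 28 cells). It was counted in most biopsies although these are drawn from cytoplasm, and exceeded every untreated cell in 15 scRNA-seq cells and 1 Live-seq cell. By pooled reads, uncorrected for length, the genes with most were in both techniques Fth1 and Ftl1, the ferritin chains, with Malat1, Lox, Sparc, Prdx6, Eef1a1, Gpx3, Prdx1 and the mitochondrial mt-Co1 and mt-Nd5. Fth1 took 47768 CPM by scRNA-seq (CV 0.612) and 74857 CPM by Live-seq (CV 0.531), in every cell.

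Between the techniques, pooled levels differed more than 2-fold for 1242 of 7549 genes of at least 10 CPM in both (16.5%), 1078 of them higher by scRNA-seq and the others by Live-seq, with a median log2 difference of 0.18. Levels had a Spearman's rho of 0.859 across genes, which are not independent replicates, and the CV relative to genes of like mean one of 0.353 across 7391 genes. Each technique has 1 batch of this state, so that technique and batch cannot be told apart. Cells sampled a single time by Live-seq and second extractions differed in what was counted: Fabp4 was found in 8 of 13 and in 3 of 24 cells, Fkbp5 in 7 and 9, Zbtb16 in 4 and 8, and Tsc22d3 in 12 and 19. The former had a median of 7394 genes detected and the latter of 4490, whose part in these counts was not tested. The glucocorticoid sums were alike in range, at 2276 to 10166 CPM (median 6361) and 715.7 to 14119 CPM (median 6630).

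The summed glucocorticoid list, carried largely by Mt1 and Mt2, and the summed lipid list showed little rank correlation. It was not computed without the metallothioneins. Across cells the glucocorticoid and lipid sums had a Spearman's rho of -0.05 by scRNA-seq (n = 35) and 0.11 by Live-seq (n = 37). The lipid and sterol sums, which share no gene, had 0.61 and 0.41, and progenitor and matrix genes 0.65 and 0.54. Single markers differed from the sums. Fabp4 was counted in 10 of the 22 scRNA-seq and 6 of the 8 Live-seq cells with all 3 hormone markers. With 2 of them it was in 3 of 7 and 3 of 10 cells, and with 1 in 1 of 4 and 1 of 15. With 0 it was in 0 of 2 and 1 of 4. Cells with Fabp4 also had more genes detected, whose part in this was not tested. All of these cells share a library batch and differ in depth.

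Whether any gene set the state apart from all others was tested on counts summed per technique, batch and state, with a block for technique and batch, in edgeR's quasi-likelihood test. Of 13562 genes, 0 were higher (0%) and 0 lower than in untreated ASPCs, IBA brown preadipocytes, and untreated and LPS-treated RAW macrophages at an adjusted p under 0.05 with a log2 fold change over 1 in each. At an unadjusted p under 0.05, 87 were higher and 83 lower in all 4. DESeq2 called 14 and the newer quasi-likelihood fit of edgeR 12, and with the size factors of DESeq2 in edgeR 5 were called. The state enters with 2 sums, which rest on matched libraries, and in data simulated with the spread of these sums the test recovered almost none of the genes that had been changed, so that a count of 0 does not show that no gene differed. Against untreated ASPCs alone, the lowest adjusted p was 7.21e-02. The genes called by all 3 of these other fits were Fth1, Mt1, Mt2 and Prdx6, a peroxiredoxin, with log2 fold changes of 2.18 ± 0.40, 3.40 ± 0.60, 4.20 ± 0.83 and 1.78 ± 0.37 (SE) against untreated ASPCs in the main fit. Of the 4 state markers Fabp4 was called by 1 of them and the other 3 by none. The smallest log2 fold change over the 4 states was 4.61 for Fabp4, 2.46 for Tsc22d3 and 0.63 for Fkbp5, with a largest adjusted p of 6.61e-01 for Fabp4 and 1.00e+00 for the other 2. Without a replicate block that of Fkbp5 became -1.79. Within the Live-seq batch, pooled Fkbp5 was lower in ASPC_Post (23.77 CPM) than in untreated RAW macrophages (46.77 CPM, counted in 4 of 12 cells). It was higher in ASPC_Post than in the other states of that batch. By scRNA-seq it was higher in ASPC_Post (60.80 CPM) than in every other state of the batch. The highest of these was IBA (24.22 CPM, counted in 35 of 45 cells). For Zbtb16 the fitted value against states at 0 is no bound and its largest adjusted p was 6.49e-01.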

How the data were processed

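Whole cells (scRNA-seq) and cytoplasmic biopsies (Live-seq) were profiled by Smart-seq2-type protocols without molecular identifiers. The authors aligned reads to mm10 with STAR 2.6.1c after bcl2fastq 2.19.1, counted reads per gene with HTSeq and deposited 1 table of raw counts, in which cells with under 1000 genes or over 30% mitochondrial reads were to be removed. Cells were grouped by label. Of the series, 162 cells of a sampling experiment were not used.

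From the counts, CPM were computed after leaving out 20 negative-control and 91 ribosomal protein genes. Symbols and positions were from a GENCODE annotation of GRCm38 (mm10). A cell was a unit of description, not a replicate. The members and lists were chosen with earlier results of these data known. Named genes were the 4 state markers, members of 22 lists (those of highest pooled CPM and of lowest or highest detection as examples), the 10 genes of highest and lowest CV ratio and the 15 of highest CPM per technique, and the genes marking the state (there were none). Genes named after their values were seen were Mt1 and Mt2 by themselves, the cells and genes around Fabp4, Dpep1, Selenop, Xist and the genes called by other fits. CV ratios used the 101 genes nearest in mean CPM. A gene that the rule also named is not reported here.

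Sums of at least 3 cells were tested with edgeR 4.0.16 (glmQLFit in its legacy form, glmQLFTest, TMM, Benjamini-Hochberg) in R 4.3.3, on genes that filterByExpr kept and that had 2 counts or more in 15% or more of some scRNA-seq state's cells. The block pairs sums by the technique and batch that the labels give. DESeq2 1.42.0 was an alternative. On simulated data the test recovered the changed genes at low spread, but almost none at the spread of these sums. Other steps used Python 3.11.15, pandas 2.3.3, scipy 1.17.1 and matplotlib 3.10.9. Exact Poisson and binomial intervals are at 95%.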

Additional observations from a re-analysis of the deposited data

Results flagged for a closer look

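EGFP, which belongs to none of the gene lists, was counted in 27 of 35 ASPC_Post cells by scRNA-seq (77.1%, 59.9 to 89.6, 9812 counts in all), whereas IBA brown preadipocytes, taken as the control, held it in 1 of 45 (1 count). In second Live-seq extractions it was counted in 17 of 24 cells (70.8%, 48.9 to 87.4, 8828 counts), against 2 of 13 cells sampled a single time and 1 of 17 IBA biopsies (1 count). Per the study's methods, GFP-marked ASPCs were mixed into a large excess of unmarked ones for repeated sampling. Untreated ASPCs sampled a single time by Live-seq held it in 8 of 12 cells (66.7%) and first extractions in 21 of 31. Untreated sorted ASPCs of batch 9_1 held EGFP in 37 of 44 cells. Untreated RAW macrophages of the same batches, whose G9 subline carries a GFP fusion per the methods, also held it. It was counted in 44 of 46 of these by scRNA-seq (2836 counts). By Live-seq it was in 8 of 10 sampled a single time and in 0 of 2 first extractions. The source of EGFP in sorted cells was not tested.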

How the results depend on the processing

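Of 85 values recomputed, 76 were labelled unchanged, by rules that differed in kind. Medians had to stay within the SD between cells, shares of cells within the binomial interval, and CVs and correlations within a fixed difference. Genes had to keep their direction and call. Large shifts could thus count as unchanged. The median glucocorticoid sum by scRNA-seq was 4307 CPM in place of 6855 CPM with negative-control and ribosomal protein genes kept. The log2 fold change of Tsc22d3, uncalled in either case, was 0.62 in place of 2.46 without the Live-seq sum of the state. The 30 matched pairs were the same with 2891 genes (added after seeing the data). The share of cells with Fabp4 moved from 40.0% to 11.4% by scRNA-seq when each cell was thinned to 50000 counts, and from 29.7% to 61.5% by Live-seq when 13 cells sampled a single time were kept. In those 13, the correlation of glucocorticoid and lipid sums was 0.21. The number of genes marking the state moved from 0 to 5 with DESeq2 size factors in edgeR, to 14 with DESeq2, to 12 with the newer edgeR fit and to 2 with no filter on low counts. It was 0 without a replicate block and 0 when either sum of the state, or either whole batch (added after seeing the data), was left out. Fkbp5 reversed without the replicate block, at a log2 fold change of -1.79, and Fabp4 passed the threshold in the newer edgeR fit (adjusted p 1.75e-02). The causes were not tested. In Live-seq, where a median of 5691 genes was detected, a gene without counts was not detectable at this depth, not shown to be absent.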

Other observations

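Single cells of ASPC_Post also stood out for genes outside the lists. Ereg, an EGF family ligand, reached 3294 CPM by scRNA-seq, where it was counted in 15 of 35 cells, and Penk, the enkephalin precursor, reached 3504 CPM and was counted in 22. By Live-seq, Mmp3, a matrix metalloproteinase, reached 14193 CPM with a median of 0 and counts in 16 of 37 cells, and Gm10800 17923 CPM with counts in 24 cells.

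Other genes exceeded every untreated cell of the batch in many cells by scRNA-seq, named after their values were seen. Heg1 did so in 29 of 35 cells (pooled 3274 CPM against 559.3 in untreated cells), Fgf2 in 20 (1868 against 457.3) and Vdr, the vitamin D receptor, in 20 (215.4 against 29.35). By Live-seq, Heg1 and Fgf2 did so in no more than 11 of 37 cells. There Gpm6b did so in 17 of 37 cells (384.4 against 17.7 CPM), and the basement membrane genes Col4a1 and Col4a2 in 14 each (999.5 against 206.3, and 632.9 against 112.6 CPM). These Live-seq genes did not reach a majority of cells, and the share of all genes with as many cells was not computed.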
